A study of Mus musculus with 8 samples.

Results

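Gene expression was compared between pre-B cells of Dido1dE16 mice and of their WT littermates, over 9873 genes of 25929 whose transcripts were summed. A gene was included when the TPM of its transcripts, added up in each library, had a mean of at least 5 over the 4 libraries. TPM gives the share of a library's transcripts, corrected for transcript length and scaled to the same total in each library. Of the 25929 genes, 14253 were above 0 in at least 1 library. Transcripts without a gene symbol in the deposited tables took the GENCODE symbol of the gene they overlap, since the deposited symbols alone covered 75.0% to 76.7% of the TPM and would have left 8305 genes.

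Pre-B cells are the bone marrow stage at which a B cell precursor has made an immunoglobulin heavy chain and not yet a light chain. The heavy chain is first shown at the surface with a surrogate light chain, made of the VpreB and lambda 5 proteins, as the pre-B cell receptor (pre-BCR). Signals from the pre-BCR and the interleukin 7 receptor drive large pre-B cells to divide, after which small pre-B cells leave the cycle, shut the surrogate light chain genes and rearrange their light chain genes. Dido1 encodes the Dido proteins, which read chromatin marks, and exon 16 encodes the C terminus of Dido3, the longest of them.

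The Dido1dE16 mice were Dido1 flE16/dE16;R26R-EYFP;iCre Vav1, with 1 allele that lacks exon 16 and 1 floxed allele cut in blood-forming cells by a Cre under the Vav1 promoter. The controls, called WT, were littermates with the genotype Dido1 flE16/+;R26R-EYFP;iCre Vav1, so they also carried a floxed allele, the Cre and the reporter, and were heterozygous where the Cre had acted. Mice were C57BL/6 animals of 6 to 10 weeks, and each library came from a pool of 2 to 3 mice. Cells were sorted by surface markers that included B220 and the absence of IgM, with 2 RNA-seq libraries per genotype. This gate has no marker that parts pro-B from pre-B cells or large from small ones.

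The libraries held 1581 and 1121 aligned megabases over annotated exons in WT and 1635 and 1174 in Dido1dE16. Replicate 1 was thus the deeper library of each genotype. Transcripts above 0 numbered 17183 to 19612. Across genes, Pearson's r of log2(TPM + 1) was 0.895 between the WT libraries, 0.921 between the Dido1dE16 libraries and 0.863 to 0.918 between genotypes. WT replicate 1 was thus closer to Dido1dE16 replicate 1 (0.918) than to WT replicate 2. The libraries carried the RNA of the sorted lineage: Pax5 was between 786 and 835 TPM, and Rag1 between 696 and 831 TPM in all 4. Of the 18 T and NK cell genes, 6 were listed at 0 in all 4 libraries, among them Cd3e and Cd3g. These are chains of the T cell receptor complex. Cd3d was at 0 and 1.25 TPM in WT and 0.967 and 2.36 TPM in Dido1dE16. Lck was between 12.6 and 22.3 TPM and Cd2 between 582 and 1052 TPM. Nkg7 was at 16.3 TPM in Dido1dE16 replicate 2 and listed at 0 in the other libraries.

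Several gene lists set single libraries apart. The 20 neutrophil and monocyte genes summed to 292 and 2459 TPM in the WT libraries and 1251 and 11128 TPM in the Dido1dE16 libraries, and the 13 erythroid genes found summed to 526 and 1199 TPM in the WT libraries and 957 and 10093 TPM in the Dido1dE16 libraries. Dido1dE16 replicate 2 was highest in both, and WT replicate 2 was above Dido1dE16 replicate 1. The 22 immediate early and stress genes, which are induced within minutes of handling or stimulation, summed to 3263 and 11818 TPM in the WT libraries and 7364 and 2636 TPM in the Dido1dE16 libraries. The 48 mitosis and G2/M genes summed to 5803 and 1202 TPM in the WT libraries and 2670.1 and 3120.4 TPM in the Dido1dE16 libraries, so the highest and the lowest level were both in WT. Transcripts of Y-linked Eif2s3y were at 120.1 and 0 TPM in WT and 29.3 and 0 TPM in Dido1dE16, while Xist was at 0 and 37.3 TPM and at 31.6 and 36.0 TPM, so the pools did not have the same sex makeup. In bulk RNA, fewer cells of a type and less RNA per cell cannot be told apart.

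**Figure D1:**
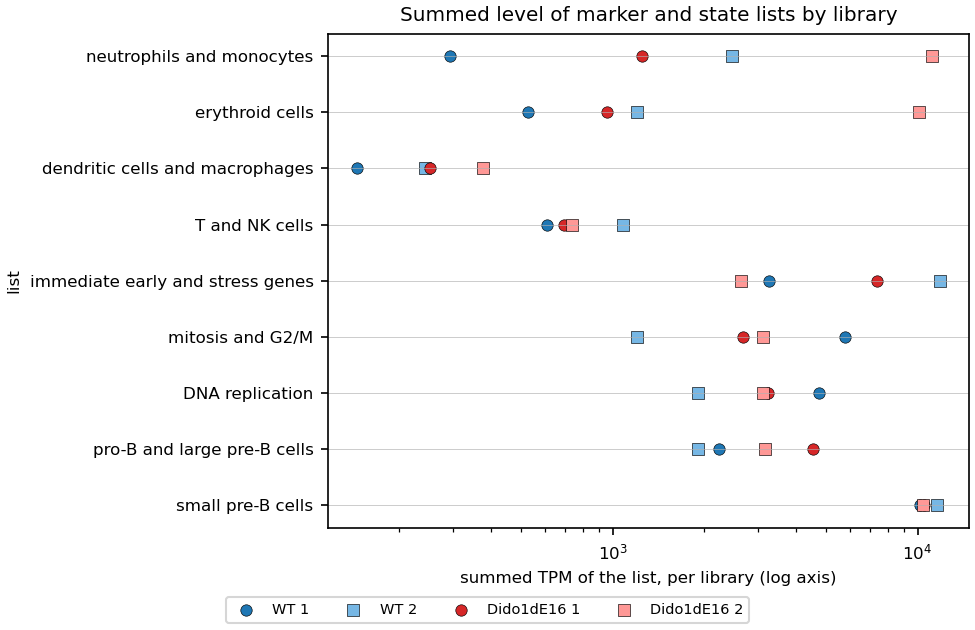
Summed TPM (log axis) of 9 gene lists in each of the 4 libraries, 1 point per library. Dido1dE16 replicate 2 lies apart in the neutrophil and erythroid lists, the WT libraries lie at both ends of the mitosis list, and both Dido1dE16 libraries lie above both WT libraries in the list of pro-B and large pre-B cells.

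The targeted exon was nearly absent in the mutant libraries. Exon 16 of Dido1 (chr2:180657963-180662583, GRCm38/mm10, minus strand, the 3' terminal exon) had a coverage, scaled to each library's TPM, of 24.6 and 21.8 in WT and of 0.295 and 0.0843 in Dido1dE16. The neighbouring exon 15 had 63.5 and 87.8 in WT and 43.2 and 62.5 in Dido1dE16. The gene sum of Dido1 was 44.3 and 46.0 TPM in the WT libraries and 81.6 and 87.2 TPM in the Dido1dE16 libraries, a log2 difference of 0.89 (SE 0.14) that did not pass the test (adjusted p = 0.221) and that was -1.01 with deposited symbols alone, which leave out part of its transcripts. Within the sum, the transcript that ends in exon 16 was listed at 35.7 and 35.0 TPM in WT and 14.9 and 19.4 TPM in Dido1dE16, and the one that ends just after exon 15 at 8.44 and 1.01 TPM in WT and 65.2 and 67.4 TPM in Dido1dE16. Both transcripts share the exons before these ends, and how StringTie divided their reads is not known. The exon coverages are those listed for the transcript that ends in exon 16. There, no exon from 1 to 15 had both Dido1dE16 libraries above both WT libraries, and exon 6 had 60.3 and 48.1 in WT and 32.7 and 33.1 in Dido1dE16. By RT-qPCR in prepro-B cells, the paper reports the rest of the locus as unaffected. Whether the higher gene sum reflects more Dido1 RNA was not tested.

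Across all genes, few differences were larger than the spread between libraries by a formal test, and most of those that were involved a value of 0. Genes were called with limma on log2(TPM + 1), at a Benjamini-Hochberg adjusted p under 0.05 and a log2 difference of at least 0.6. Of 9873 genes, 3 were called higher in Dido1dE16 (0.0304%) and 3 lower (0.0304%), while 991 had an unadjusted p under 0.05. As a description with no test, 741 genes (7.51%) had both Dido1dE16 libraries above both WT libraries and a log2 difference of at least 0.6, and 315 genes (3.19%) had both below. These genes are called higher or lower without overlap below. A gene with a mean under 5 TPM in 1 genotype was included only where the other genotype was higher, so its inclusion depended on its difference. Kit, Cish, Hk2, Phlda3 and Gbp7 were such list members, among others. Of the 1056, 131 were listed at 0 in at least 1 library. The median log2 difference of all genes was 0.049. With median-centred values, 646 genes were higher and 385 lower without overlap, so the excess of higher genes depends in part on the scaling.

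**Figure D2:**
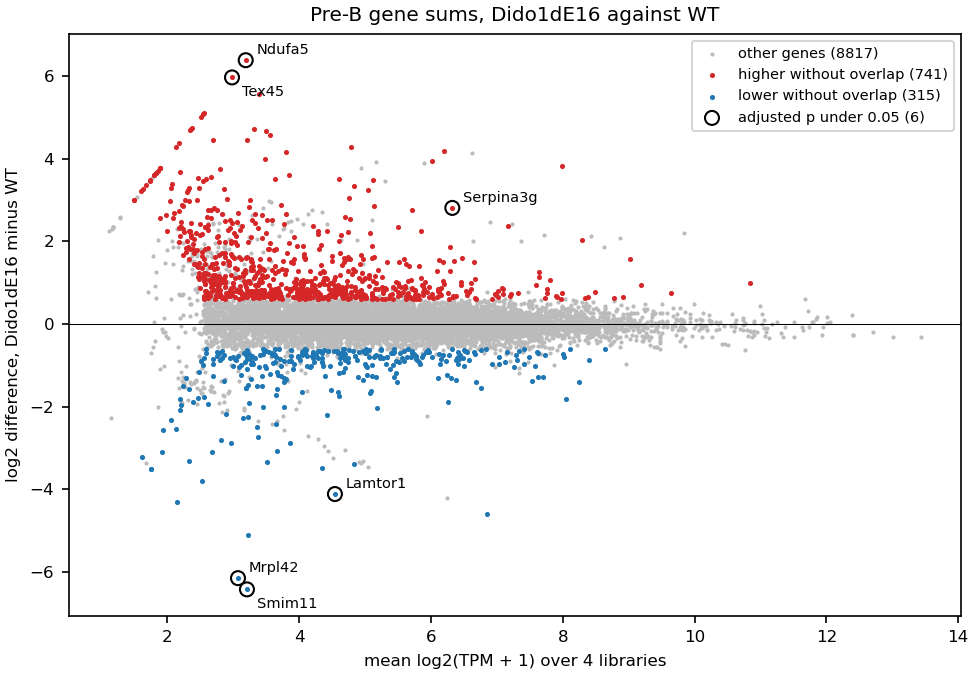
Each point is 1 of 9873 genes, with its mean log2(TPM + 1) over the 4 libraries on the x axis and its log2 difference (Dido1dE16 minus WT) on the y axis. Of the 6 circled genes that passed the test, Serpina3g and Lamtor1 were above 0 in all 4 libraries, and the diagonal line of points at the upper left holds genes listed at 0 in both WT libraries.

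Serpina3g rose in Dido1dE16 pre-B cells. This serine protease inhibitor of the serpin family (chr12:104214544-104241934) was at 29.0 and 29.5 TPM in the WT libraries and 227 and 197 TPM in the Dido1dE16 libraries, a log2 difference of 2.81 (SE 0.15) with an adjusted p of 0.0308. The values of the 2 genotypes lie far apart and each pair is tight. Its adjusted p lay between 0.0296 and 0.672 over the processing alternatives, and the call was lost in several of them, among these a pseudocount of 0.1, no filter on low values and leaving out any 1 library. Its family has near-identical copies side by side in the genome, among which the assignment of reads is uncertain, and the other transcripts listed at the locus summed to 21.1 and 44.8 TPM in WT and 87.8 and 39.9 TPM in Dido1dE16, with overlap.

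The other 5 called genes had values at or near 0 in 1 genotype. Ndufa5, a subunit of respiratory complex I, was listed at 0 in both WT libraries and at 83.0 and 81.7 TPM in Dido1dE16 (adjusted p = 0.0271). Tex45, a testis-expressed gene, was listed at 0 in both WT libraries and at 60.8 and 62.1 TPM in Dido1dE16 (adjusted p = 0.0308). Smim11, a small membrane protein, was at 81.9 and 87.3 TPM in WT and listed at 0 in both Dido1dE16 libraries (adjusted p = 0.0271), and so was Mrpl42, a protein of the mitochondrial ribosome, from 74.0 and 66.0 TPM in WT (adjusted p = 0.0308). Lamtor1, which anchors the Ragulator complex at the lysosome for mTORC1 signalling, was at 90.0 and 102 TPM in the WT libraries and 4.90 and 4.33 TPM in the Dido1dE16 libraries (adjusted p = 0.0271), and its main transcript, at 88.7 and 99.3 TPM in WT, was listed at 0 in both Dido1dE16 libraries. Ndufa5 and Mrpl42 are used by every cell with mitochondria, and a listed 0 from StringTie can be a failed estimate, so these values are given as listed and no fold is drawn from them. At the Ndufa5, Tex45 and Mrpl42 loci no other named transcript overlapped.

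The 12 largest differences without overlap in each direction were mostly of the same kind. Among the 12 higher genes, Pcp4l1, Crhbp, Gm49380, Smim27, Trhr2 and Uprt were listed at 0 in both WT libraries beside Ndufa5 and Tex45, and Lman1l, B230312C02Rik and Ighg2b in 1 of them. Il9r, the receptor for interleukin 9, which signals through the same gamma chain and Jak kinases as the interleukin 7 receptor, was above 0 throughout, at 1.68 and 0.876 TPM in the WT libraries and 48.6 and 64.7 TPM in the Dido1dE16 libraries. Ighg2b, the constant region of IgG2b, was at 4.83 and 0 TPM in the WT libraries and 66.7 and 47.1 TPM in the Dido1dE16 libraries. Among the 12 lower genes, Zfp593, Bckdhb and Dmrt3 were listed at 0 in both Dido1dE16 libraries beside Smim11 and Mrpl42. Eci1, Cox6b1, Isy1, Usp3 and Tmem126a were listed at 0 in Dido1dE16 replicate 2, and Cox6b1 in the other libraries was between 555 and 576 TPM. Pkp3, a desmosomal protein, was at 17.1 and 24.2 TPM in the WT libraries and 1.01 and 0.195 TPM in the Dido1dE16 libraries.

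**Figure D3:**
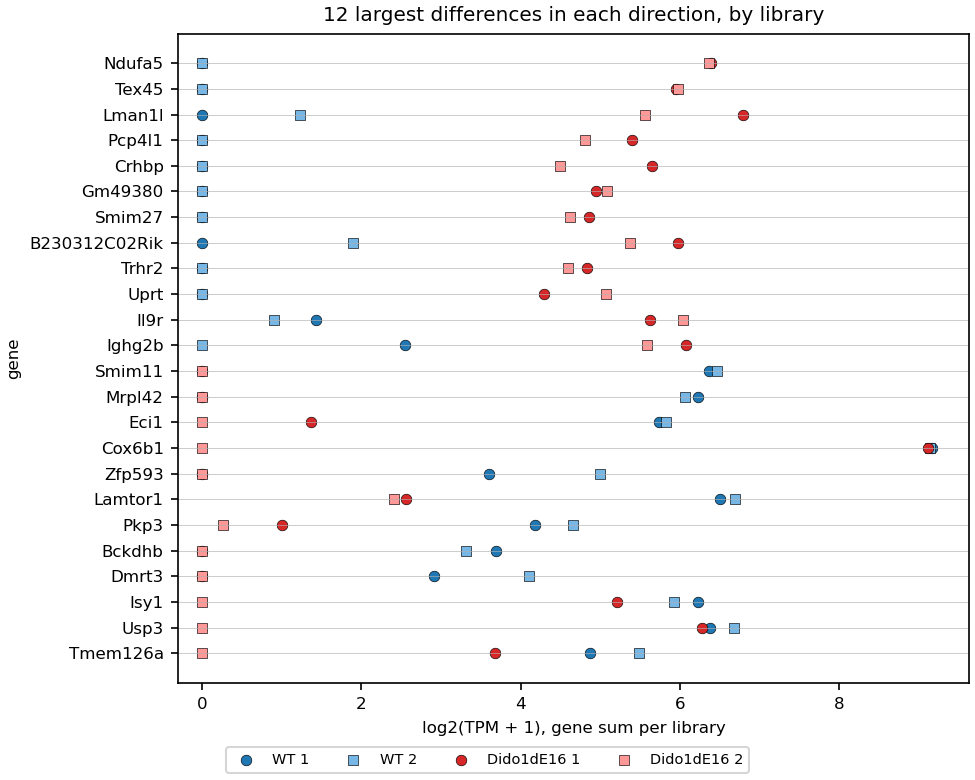
Log2(TPM + 1) of the 12 genes with the largest difference without overlap in each direction, 1 point per library, higher genes at the top. Points at 0 are listed zeros: 8 of the 12 higher genes are at 0 in both WT libraries and 5 of the 12 lower genes in both Dido1dE16 libraries.

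Among genes at 0 in no library, 640 were higher and 285 lower without overlap, and the 8 largest of each were named after their values were seen. Besides Il9r, Vpreb1, Vpreb2 and Erg, which are taken up with the stage genes, the higher ones were Foxj1, a forkhead factor (0.689 and 1.01 TPM in WT and 21.5 and 20.1 TPM in Dido1dE16), 4930478P22Rik (2.53 and 2.81 TPM in WT and 48.9 and 33.9 TPM in Dido1dE16), Enpep (8.59 and 8.29 TPM in WT and 93.8 and 63.7 TPM in Dido1dE16) and Prg2 (4.27 and 14.3 TPM in WT and 23.4 and 337 TPM in Dido1dE16). Enpep is the aminopeptidase known as BP-1, a surface antigen of early B cell stages. Prg2, the eosinophil major basic protein, was highest in the library with the highest granulocyte levels. Besides Lamtor1 and Pkp3, the lower ones were B3galt4, Iffo1, Snord37, Gm14137, Sft2d1 and Fndc9, of which Iffo1 was at 35.8 and 40.8 TPM in the WT libraries and 5.08 and 3.76 TPM in the Dido1dE16 libraries. Ifi30, the lysosomal thiol reductase of antigen processing, also named after its values were seen, was lower by less on the log2 scale but at higher levels, at 429 and 575 TPM in the WT libraries and 137 and 145 TPM in the Dido1dE16 libraries (log2 difference -1.81 (SE 0.19), adjusted p = 0.119).

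The genes of the 1056 were lower in level than the genes around them. Their median level was 14.8 TPM for the higher and 23.4 TPM for the lower genes, against 40.7 TPM for all genes tested. The median GC content of their promoters was 60.0% and 60.1%, against 61.0% for all genes tested.

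Genes of 44 lists, by stage, pathway and complex, were then described by how many of their members were higher or lower without overlap, beside the background of 7.51% and 3.19%, and by the median log2 difference, beside 0.049 for all genes, of which 56.6% had a positive difference. In 25 of 43 lists the median changed sign when some 1 library was left out, most often WT replicate 2, and lists whose median did not were those of pro-B and large pre-B cells, the interleukin 7 receptor, both MHC classes, glycolysis and the amino acid response, among others. Ndufa5 and Mrpl42 were the only list members that passed the test in these 44 lists, so none of the differences below is called. The SD between library medians is that of a list's median level among libraries of 1 genotype. It is not an error of the median difference beside it. Taking for each gene only the transcript with the highest mean TPM turned the sign of Cbx7, Cdkn1a, Cyc1, H2-Ab1, Jak3 and Mrpl55, and using deposited symbols alone turned that of H2-Ab1, Jak3 and Ndufb8.

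**Figure D4:**
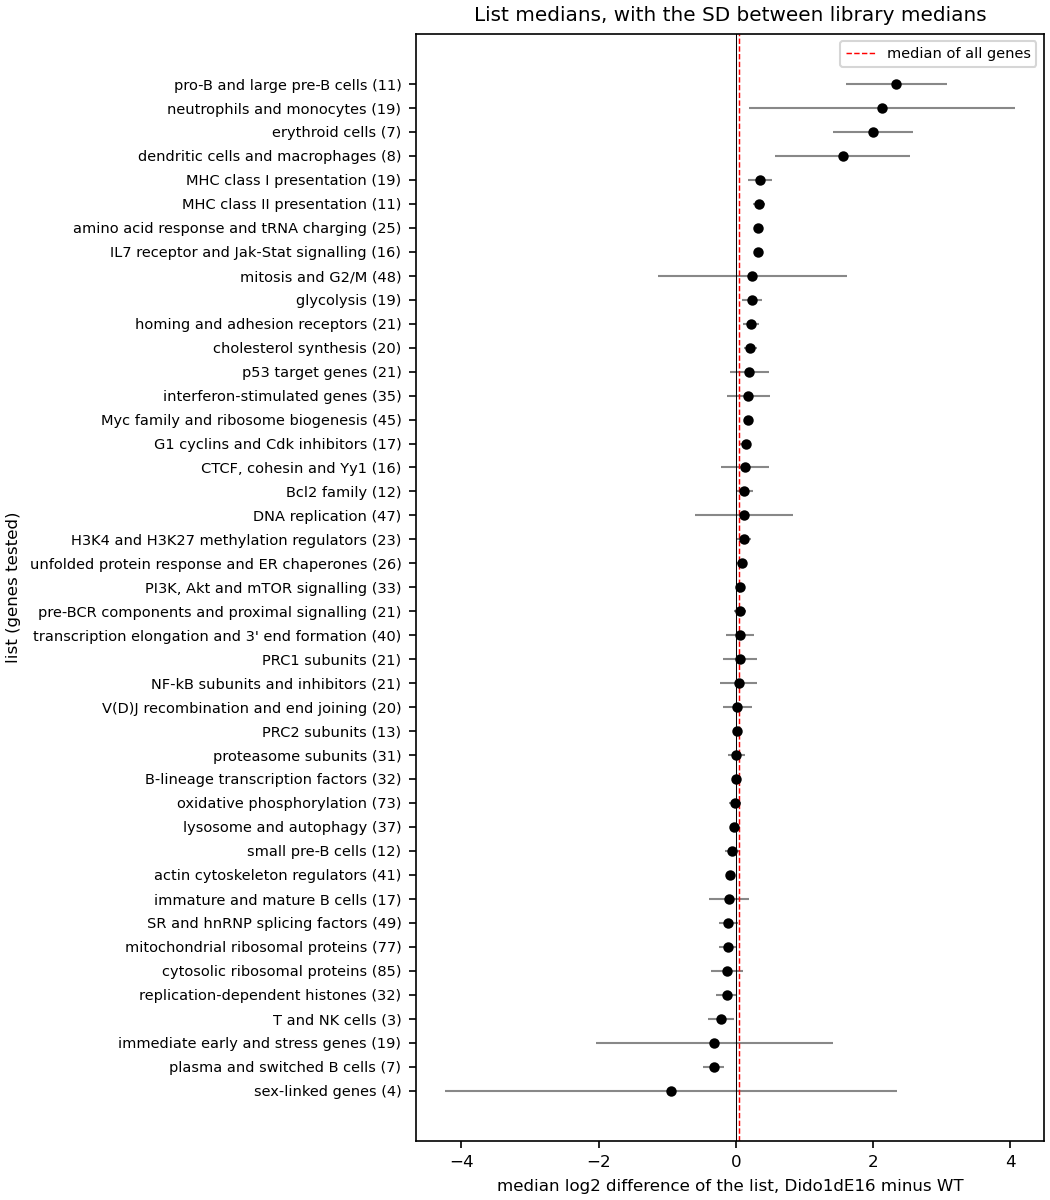
Median log2 difference (Dido1dE16 minus WT) of the tested genes of 43 lists, with the number of genes in brackets. Bars are the SD between the median levels of libraries of 1 genotype and are not an error of the plotted median. The list of pro-B and large pre-B cells has the largest median.

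Genes of pro-B and large pre-B cells stood higher in Dido1dE16. Of 11 tested, 7 were higher without overlap and none lower, with a median of 2.34 (SD 0.74 between library medians). The median was 1.46 to 2.70 with a library left out. The surrogate light chain genes were among the 7. Vpreb1, 1 of 2 VpreB genes, was at 108 and 40.9 TPM in the WT libraries and 1222 and 738 TPM in the Dido1dE16 libraries, with no overlap between genotypes (log2 difference 3.81 (SE 0.54), adjusted p = 0.192). Vpreb2 was at 27.1 and 8.76 TPM in the WT libraries and 382 and 168 TPM in the Dido1dE16 libraries (3.94 (SE 0.66), adjusted p = 0.232). Igll1, which encodes lambda 5, was at 112 and 34.4 TPM in the WT libraries and 424 and 252 TPM in the Dido1dE16 libraries (2.37 (SE 0.63), adjusted p = 0.359). In all 3 genes replicate 1 was above replicate 2 in each genotype. Vpreb1 and Vpreb2 are near-identical copies, so reads could be split between them.

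The promoters of these genes and of Dntt are printed because the 4 genes encode the surrogate light chain and the terminal transferase, which mark the stages before the small pre-B cell. Each sequence is a 300-base RefSeq window on GRCm38.p6 around the start of the gene, 5' to 3' on the gene's strand, with matches to CCCNNGGG, a core of the EBF motif, and to CAGNTG, an E-box core bound by E2A proteins, in capitals (both strands were searched).
Vpreb1: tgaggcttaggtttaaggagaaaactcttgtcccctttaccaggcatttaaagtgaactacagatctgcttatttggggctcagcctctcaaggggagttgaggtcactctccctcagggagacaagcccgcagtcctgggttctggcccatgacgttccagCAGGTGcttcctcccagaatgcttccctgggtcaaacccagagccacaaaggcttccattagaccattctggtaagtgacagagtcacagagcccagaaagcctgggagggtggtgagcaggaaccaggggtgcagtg
Vpreb2: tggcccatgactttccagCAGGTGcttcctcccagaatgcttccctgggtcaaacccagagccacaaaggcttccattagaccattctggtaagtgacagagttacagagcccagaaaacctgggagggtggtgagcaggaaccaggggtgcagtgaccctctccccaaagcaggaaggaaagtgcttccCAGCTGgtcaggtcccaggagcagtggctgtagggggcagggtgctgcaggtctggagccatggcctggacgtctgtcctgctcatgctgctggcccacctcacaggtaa
Igll1: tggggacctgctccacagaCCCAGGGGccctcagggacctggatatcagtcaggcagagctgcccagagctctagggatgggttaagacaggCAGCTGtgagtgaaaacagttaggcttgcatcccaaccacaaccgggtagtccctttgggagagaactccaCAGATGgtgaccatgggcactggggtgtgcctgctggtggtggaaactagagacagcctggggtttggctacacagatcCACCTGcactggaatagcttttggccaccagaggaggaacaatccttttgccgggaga
Dntt: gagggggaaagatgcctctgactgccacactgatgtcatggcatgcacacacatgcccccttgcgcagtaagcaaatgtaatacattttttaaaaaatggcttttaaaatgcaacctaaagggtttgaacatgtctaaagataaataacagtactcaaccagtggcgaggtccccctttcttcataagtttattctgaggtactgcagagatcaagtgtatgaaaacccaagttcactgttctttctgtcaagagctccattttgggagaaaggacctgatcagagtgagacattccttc
The windows lie at chr16:16869206-16869505 (minus strand), chr16:17980315-17980614 (plus strand), chr16:16863936-16864235 (minus strand) and chr19:41029025-41029324 (plus strand). Igll1 held 1 match to CCCNNGGG and 3 to CAGNTG, Vpreb2 held 2 and Vpreb1 held 1 match to CAGNTG, and Dntt held neither. CCCNNGGG occurred in 13.7% and CAGNTG in 51.4% of the 32851 promoters in the table. Among promoters of the genes higher without overlap the shares were 19.7% and 53%, among those lower 14.6% and 47.4%, and among those of all genes tested 17.8% and 43.1%. Over the 156 bases where the Vpreb1 and Vpreb2 windows align without a gap, 153 were identical.

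The other 4 higher genes of the list have other roles. Dntt, the terminal transferase that adds bases at V(D)J joins, was at 48.7 and 7.18 TPM in the WT libraries and 191 and 96.0 TPM in the Dido1dE16 libraries (2.76 (SE 0.94), adjusted p = 0.46), with WT replicate 1 well above WT replicate 2. Erg, an ETS factor of blood stem cells and early B precursors, was at 13.4 and 7.06 TPM in the WT libraries and 114 and 88.8 TPM in the Dido1dE16 libraries (3.24 (SE 0.34), adjusted p = 0.119). Kit, the stem cell factor receptor, was at 1.63 and 0.599 TPM in WT and 9.74 and 9.06 TPM in Dido1dE16, and Bst1, a surface enzyme of stromal and B precursor cells known as BP-3, at 162 and 144 TPM in WT and 366 and 284 TPM in Dido1dE16. Kit, with a WT mean of 1.11 TPM, passed the mean of 5 through the Dido1dE16 libraries, and its log2 difference of 2.34 is the list median. With a mean TPM of at least 1 or without a filter, the list median was 1.71. Members that did not separate were Cd93, Il2ra, Myb and Sox4, each between 261 and 672 TPM with overlapping genotypes. Mycn was below the level needed for testing. The marker Mki67 of dividing cells, named after its values were seen, was at 228 and 25.0 TPM in WT and 86.3 and 139 TPM in Dido1dE16, with the genotypes overlapping.

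**Figure D5:**
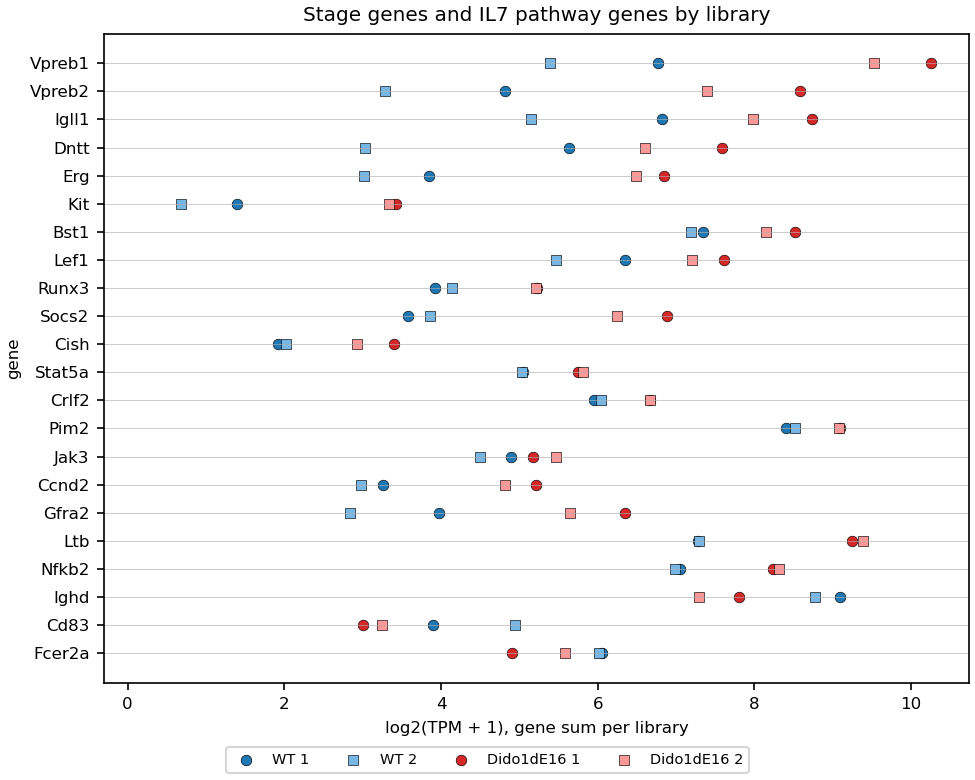
Log2(TPM + 1) of 22 stage, IL7 pathway and signalling genes, 1 point per library. From Vpreb1 to Nfkb2 both Dido1dE16 libraries lie to the right of both WT libraries, and for Ighd, Cd83 and Fcer2a they lie to the left.

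Beyond the surrogate light chain, the pre-BCR and its proximal signalling genes were close to WT. Of 21 tested, 3 were higher without overlap (Vpreb1, Vpreb2 and Igll1) and none lower, and the median was 0.059 (SD 0.084 between library medians). Ighm, the mu heavy chain, was at 8318 and 10302 TPM in the WT libraries and 7429 and 7369 TPM in the Dido1dE16 libraries, with both Dido1dE16 libraries lower by a log2 difference of -0.32 (SE 0.14).

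The V(D)J recombination and end joining genes lay on both sides of WT, with 2 of 20 higher, 2 lower and a median of 0.026 (SD 0.21 between library medians). Poll, DNA polymerase lambda, was at 7.83 and 8.0 TPM in WT and 14.2 and 14.0 TPM in Dido1dE16, and Polm, DNA polymerase mu, at 444 and 541 TPM in WT and 344 and 303 TPM in Dido1dE16. Nhej1 (XLF) was at 25.4 and 21.4 TPM in WT, and at 17.6 TPM and a listed 0 in Dido1dE16. Rag2 was at 282 and 165 TPM in WT and 183 and 176 TPM in Dido1dE16, and with Rag1 did not separate the genotypes.

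Of 32 B-lineage transcription factors tested, 3 were higher without overlap and none lower, with a median of -0.00056 (SD 0.06 between library medians). Besides Erg these were Lef1, the Wnt pathway factor of pro-B cells, at 80.5 and 43.2 TPM in the WT libraries and 194 and 147 TPM in the Dido1dE16 libraries, and Runx3, at 14.2 and 16.7 TPM in the WT libraries and 36.4 and 36.1 TPM in the Dido1dE16 libraries (log2 difference 1.18 (SE 0.17), adjusted p = 0.193). Ebf1 was between 427 and 465 TPM in all 4 libraries. Ikzf3 (Aiolos), which is induced as pre-B cells differentiate, was at 355 and 371 TPM in WT and 481 and 584 TPM in Dido1dE16, without overlap but under the 0.6 needed to be counted.

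The interleukin 7 receptor and Jak-Stat list had the largest share of higher genes after the pro-B list: 7 of 16 were higher without overlap and none lower, with a median of 0.32 (SD 0.031 between library medians). With median-centred values 5 of the 16 were higher without overlap, and with FPKM 6. The median was 0.31 to 0.42 with a library left out. Among targets of Stat5, Socs2 was at 10.9 and 13.5 TPM in the WT libraries and 117 and 75.1 TPM in the Dido1dE16 libraries (log2 difference 2.85 (SE 0.27), adjusted p = 0.119), Cish at 2.77 and 3.06 TPM in WT and 9.50 and 6.59 TPM in Dido1dE16, and Pim2, a survival kinase, at 336 and 365 TPM in WT and 544 and 542 TPM in Dido1dE16. Both Cish and Socs2 encode feedback inhibitors of cytokine signalling. Of the signalling proteins, Stat5a was at 32.2 and 31.8 TPM in WT and 52.7 and 55.3 TPM in Dido1dE16 and the kinase Jak3 at 28.7 and 21.5 TPM in WT and 35.1 and 43.3 TPM in Dido1dE16. Of the receptors, Kit is given above, and Crlf2, the TSLP receptor chain that pairs with the interleukin 7 receptor alpha chain, was at 61.1 and 65.1 TPM in WT and 101 TPM in both libraries of Dido1dE16. Il7r itself was at 442 and 313 TPM in WT and 468 and 392 TPM in Dido1dE16, with overlap. Pim2, Jak3 and Crlf2 were named after their values were seen. Kit and Cish had WT means of 1.11 and 2.92 TPM, so they passed the mean of 5 through the Dido1dE16 libraries.

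Markers of later stages lay on both sides of WT. Of 12 small pre-B cell genes, Gfra2 alone was higher without overlap, at 14.6 and 6.14 TPM in WT and 80.4 and 48.9 TPM in Dido1dE16, and the median was -0.06 (SD 0.10 between library medians). Of 17 genes of immature and mature B cells, 2 were higher and 3 lower, with a median of -0.095 (SD 0.30 between library medians). Ltb, which encodes lymphotoxin beta, was at 154 and 155 TPM in the WT libraries and 604 and 670.4 TPM in the Dido1dE16 libraries, a log2 difference of 2.03 (SE 0.13) that did not pass the test (adjusted p = 0.0596), and Cd40 was at 53.7 and 96.1 TPM in WT and 144 and 117 TPM in Dido1dE16. Ighd, the delta heavy chain of mature B cells, was at 546 and 438 TPM in the WT libraries and 223 and 155 TPM in the Dido1dE16 libraries (-1.39 (SE 0.24), adjusted p = 0.232). Cd83, an activation antigen, was at 13.9 and 29.8 TPM in WT and 7.02 and 8.46 TPM in Dido1dE16, and Fcer2a (CD23) at 65.6 and 63.6 TPM in WT and 29.1 and 46.7 TPM in Dido1dE16. Of 7 plasma cell and switched B cell genes tested, Ighg2b was higher and Sdc1 (CD138, 121 and 102 TPM in WT and 64.4 and 57.0 TPM in Dido1dE16) and Derl3 (27.1 and 39.0 TPM in WT and 22.2 and 15.1 TPM in Dido1dE16) were lower. The switched constant regions Ighg1, Ighg2c and Ighg3 were listed at 0 in all 4 libraries. Igha, also a switched constant region, was at 3.74 and 9.10 TPM in WT and 2.70 and 7.31 TPM in Dido1dE16, with overlap.

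Antigen presentation genes differed by small amounts. All 19 tested genes of MHC class I presentation had a positive log2 difference, with a median of 0.36 (SD 0.17 between library medians), and 2 of them were higher without overlap and by 0.6: Nlrc5, the class I transactivator (21.9 and 16.6 TPM in WT and 38.8 and 25.3 TPM in Dido1dE16), and H2-T22 (171 TPM in both libraries of WT and 306 and 228 TPM in Dido1dE16). Of 11 MHC class II genes, H2-Oa was higher without overlap (101 and 131 TPM in WT and 171 and 199 TPM in Dido1dE16) and the median was 0.34 (SD 0.083 between library medians). Within this list the chains differed in direction. The invariant chain Cd74 was at 2687 and 2665 TPM in WT and 3724 and 4389 TPM in Dido1dE16, while H2-Aa was at 875 and 729 TPM in WT and 589 and 687 TPM in Dido1dE16, H2-Ab1 at 614 and 648 TPM in WT and 467 and 499.9 TPM in Dido1dE16 and H2-Eb1 at 228 and 214 TPM in WT and 145 and 146 TPM in Dido1dE16, all 4 without overlap and under the 0.6 needed to be counted.

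Nfkb2, the p100 subunit of the alternative NF-kB pathway, was the 1 gene of 21 NF-kB subunits and inhibitors that was higher without overlap, at 131 and 125 TPM in the WT libraries and 299.6 and 318 TPM in the Dido1dE16 libraries (log2 difference 1.26 (SE 0.13), adjusted p = 0.119). Of 35 interferon-stimulated genes, 7 were higher and 1 lower, with a median of 0.18 (SD 0.31 between library medians). Gbp7, a guanylate-binding GTPase, was at 2.26 and 2.60 TPM in WT and 10.2 and 8.29 TPM in Dido1dE16. Ifitm1, Ifitm2 and Ifitm3, antiviral membrane proteins, were also counted as higher, but Ifitm1 and Ifitm2 were listed at 0 in 1 WT library each and Ifitm3 was at 5.27 and 14.4 TPM in WT and 14.6 and 54.4 TPM in Dido1dE16. The Gbp and Ifitm genes lie in families of close copies.

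Cell cycle genes separated the WT libraries from each other and not the genotypes. None of 47 DNA replication genes and none of 48 mitosis and G2/M genes was higher or lower without overlap, with medians of 0.12 (SD 0.72 between library medians) and 0.24 (SD 1.38 between library medians). With WT replicate 1 left out, 44 of the 48 mitosis genes were higher in Dido1dE16 without overlap, and with WT replicate 2 left out, 44 of the 48 were lower. The G1 list held 2 of 17 genes that were higher, Ccnd2 (cyclin D2, 8.56 and 6.85 TPM in WT and 36.1 and 27.1 TPM in Dido1dE16) and Cdkn1a (p21, 30.6 and 12.2 TPM in WT and 52.0 and 36.0 TPM in Dido1dE16). The immediate early and stress genes also separated no genotypes, with 0 of 19 in either direction and a median of -0.31 (SD 1.73 between library medians). Leaving out Dido1dE16 replicate 2 turned that median to 0.66.

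Growth and survival pathways showed few members without overlap. Of 45 Myc family and ribosome biogenesis genes, 3 were higher (Srm, the spermidine synthase, 17.7 and 15.7 TPM in WT and 31.4 and 25.0 TPM in Dido1dE16, with Rrp12 and Utp20) and none lower, with a median of 0.17 (SD 0.06 between library medians). Of 33 genes of PI3K, Akt and mTOR signalling, 3 were higher and 2 lower, against 1 higher and 2 lower with median-centred values or FPKM. Rptor, the raptor subunit of mTORC1, was at 40.5 and 39.0 TPM in WT and 74.7 and 68.3 TPM in Dido1dE16, Irs1 at 16.7 and 20.8 TPM in WT and 11.2 and 8.03 TPM in Dido1dE16 and Rps6kb2, an S6 kinase, at 82.8 and 86.3 TPM in WT and 56.6 and 41.5 TPM in Dido1dE16. Of 21 p53 target genes, Phlda3 (1.80 and 2.76 TPM in WT and 8.02 and 7.65 TPM in Dido1dE16) and Cdkn1a were higher and Ephx1 (47.2 and 64.7 TPM in WT and 18.5 and 26.3 TPM in Dido1dE16) was lower, and none of 12 Bcl2 family genes was counted in either direction.

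Among metabolic lists, glycolysis had the most members higher. Of 19 glycolysis genes, 5 were higher without overlap (4 with median-centred values or FPKM) and none lower. The median was 0.24 (SD 0.14 between library medians). They were the hexokinases Hk1 (27.1 and 25.9 TPM in WT and 42.6 and 54.5 TPM in Dido1dE16) and Hk2 (3.54 and 3.50 TPM in WT and 5.86 and 8.17 TPM in Dido1dE16), Pfkm (5.36 and 5.69 TPM in WT and 10.7 and 14.3 TPM in Dido1dE16), Pdk1, which holds pyruvate back from mitochondria (12.2 and 14.7 TPM in WT and 28.7 and 28.5 TPM in Dido1dE16), and the glucose transporter Slc2a3, named after its values were seen (6.16 and 7.23 TPM in WT and 7.84 and 18.0 TPM in Dido1dE16). Of 25 amino acid response and tRNA charging genes, 4 were higher (2 with median-centred values or FPKM) and none lower, with a median of 0.33 (SD 0.059 between library medians). Asns, the asparagine synthetase, was at a listed 0 and 2.77 TPM in WT and 13.4 and 15.7 TPM in Dido1dE16, and Phgdh, which opens serine synthesis, at 35.2 and 29.4 TPM in WT and 63.4 and 60.1 TPM in Dido1dE16. Slc7a5 and Xpot were the other 2. Of 20 cholesterol synthesis genes, Tm7sf2 alone was higher (7.40 and 5.86 TPM in WT and 25.5 and 7.88 TPM in Dido1dE16).

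In the lists of mitochondrial ribosomal proteins and oxidative phosphorylation, genes without overlap were lower in Dido1dE16, apart from Ndufa5. Of 77 mitochondrial ribosomal proteins, 6 were lower and none higher without overlap, with a median of -0.11 (SD 0.13 between library medians), and 18 of the 77 had a positive difference. Besides Mrpl42 these included Mrpl55 (32.4 and 41.2 TPM in WT and 18.4 and 15.5 TPM in Dido1dE16), Mrps10 (19.0 and 21.6 TPM in WT and 12.6 and 7.58 TPM in Dido1dE16) and Mrps18c (55.3 and 69.0 TPM in WT and 38.4 and 26.8 TPM in Dido1dE16). Of 73 oxidative phosphorylation genes, 5 were lower and 1 higher, with a median of -0.015 (SD 0.087 between library medians). Cyc1, cytochrome c1 of complex III, was at 194 and 249 TPM in WT and 107 and 105 TPM in Dido1dE16. With only the highest transcript per gene, the log2 differences of Cyc1 and Mrpl55 turned to 2.93 and 1.05. Cox6b1, listed at 0 in Dido1dE16 replicate 2, and Ndufb8 were counted as lower through that library. Ndufb8 was at 283 and 263 TPM in WT and 252 and 70.3 TPM in Dido1dE16. Without Dido1dE16 replicate 2, 1 oxidative phosphorylation gene was lower and 1 higher, and of the mitochondrial ribosomal proteins 5 were lower and 1 higher, with a median of -0.015.

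RNA processing and protein synthesis lists gave few differences. Of 49 SR and hnRNP splicing factors, 3 were lower and none higher, with a median of -0.11 (SD 0.14 between library medians): the kinases of SR proteins Clk1 (247 and 380.4 TPM in WT and 162 and 96.5 TPM in Dido1dE16) and Clk4 (93.7 and 139 TPM in WT and 88.6 and 58.4 TPM in Dido1dE16), and Tra2a (212 and 195 TPM in WT and 176 and 93.2 TPM in Dido1dE16). Of 85 cytosolic ribosomal proteins, 2 were higher and 2 lower, the higher ones being the copies Rps4l (17.5 and 7.36 TPM in WT and 61.1 and 52.8 TPM in Dido1dE16) and Rpl3l (3.38 and 4.35 TPM in WT and 9.53 and 8.12 TPM in Dido1dE16). None of 40 genes of transcription elongation and 3' end formation, 26 of the unfolded protein response and 31 of the proteasome was counted in either direction. Of 32 replication-dependent histone genes, 3 were lower and 1 higher, and Hist3h2a was at 233 and 93.0 TPM in WT and 51.2 and 29.6 TPM in Dido1dE16. Many of these histone mRNAs have no poly(A) tail and lie among close copies.

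Few chromatin regulators were higher or lower without overlap. Of 13 PRC2 subunits, Epop alone was higher (8.94 and 8.18 TPM in WT and 14.1 and 15.2 TPM in Dido1dE16), with a median of 0.02 (SD 0.03 between library medians), which was 0.32 without WT replicate 1 and -0.30 without WT replicate 2. Of 21 PRC1 subunits, Cbx7 was higher (41.2 and 45.7 TPM in WT and 69.9 and 87.7 TPM in Dido1dE16) and Ring1 lower (41.9 and 65.4 TPM in WT and 35.1 and 29.3 TPM in Dido1dE16). Of 23 regulators of H3K4 and H3K27 methylation, Kmt2a (MLL1) was higher (50.7 and 24.5 TPM in WT and 54.6 and 60.8 TPM in Dido1dE16). None of 16 genes of CTCF, cohesin and Yy1 was counted in either direction, and all 16 had a positive difference, against 13 with median-centred values and 14 with FPKM, while without WT replicate 2 the median was -0.13 (median 0.13 (SD 0.35 between library medians)).

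Of 21 homing and adhesion receptors, 3 were higher and 1 lower, with a median of 0.23 (SD 0.12 between library medians), which was 0.011 without Dido1dE16 replicate 2. Itgal, the alpha chain of LFA-1, was at 18.3 and 16.6 TPM in WT and 25.7 and 43.4 TPM in Dido1dE16, Cnr2, the cannabinoid receptor of B cells, at 48.7 and 107 TPM in WT and 119 and 130.1 TPM in Dido1dE16, and S1pr3 at 4.88 and 6.99 TPM in WT and 11.8 and 9.14 TPM in Dido1dE16. Itgb7 was lower, at 9.82 and 12.8 TPM in WT and 3.06 and 8.18 TPM in Dido1dE16. Of 41 actin cytoskeleton regulators, Dock10 (60.0 and 48.0 TPM in WT and 79.2 and 102 TPM in Dido1dE16) and Vav3 were higher and Coro7 (218 and 186 TPM in WT and 146 and 98.4 TPM in Dido1dE16) was lower. Of 37 lysosome and autophagy genes, Gaa (15.1 and 17.4 TPM in WT and 24.4 and 31.2 TPM in Dido1dE16) was higher and Mcoln1 (47.9 and 48.0 TPM in WT and 33.5 and 22.5 TPM in Dido1dE16) and Atg16l2 (109 and 113 TPM in WT and 81.5 and 63.6 TPM in Dido1dE16) were lower.

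Markers of other cells were higher in Dido1dE16 mainly through replicate 2. Of 19 neutrophil and monocyte genes tested, 19 had a positive difference, but 2 were without overlap, Prtn3 (2.77 and 5.29 TPM in WT and 9.79 and 118 TPM in Dido1dE16) and Itgam (22.4 and 27.4 TPM in WT and 43.1 and 71.9 TPM in Dido1dE16), and the median of 2.13 (SD 1.94 between library medians) became 0.40 without Dido1dE16 replicate 2. The erythroid median of 2.01 (SD 0.58 between library medians) became 0.33 without it. Slc4a1 and Car2 (39.2 and 28.9 TPM in WT and 78.0 and 105 TPM in Dido1dE16) were the erythroid genes without overlap, and Adgre1 (1.18 and 1.91 TPM in WT and 7.58 and 14.7 TPM in Dido1dE16) and Cd68 (8.89 and 10.6 TPM in WT and 14.9 and 22.4 TPM in Dido1dE16) those of 8 dendritic cell and macrophage genes. Of the T and NK cell genes, 3 of 18 reached the level for testing and none was counted, and no megakaryocyte gene reached it. The part of these cells in the differences of other genes was not tested.

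The ATAC-seq libraries of the series, from LSK cells (Lin- Sca1+ Kit+ blood stem and progenitor cells) of the same 2 genotypes, give the promoter state upstream of these cells. Of the 9873 genes, 6570 (66.5%) had a MACS2 promoter peak in both WT LSK libraries, and 537 of those (8.17%) had none in either Dido1dE16 LSK library. Among genes higher in pre-B cells without overlap, 386 of 741 had the WT peak and 61 of the 386 (15.8%) had none in Dido1dE16. Among genes lower without overlap, 154 of 315 had it and 22 of the 154 (14.3%) had none in Dido1dE16. The share was thus above that of all genes in both directions, and it was not tested whether the lower level of these genes accounts for it. Among the named genes, Kmt2a, Slc7a5, Pfkm, Epop, Tm7sf2, Adgre1 and Ifitm1 of the higher and Iffo1, Ndufb8 and Sft2d1 of the lower genes had a promoter peak in both WT and in neither Dido1dE16 LSK library. Vpreb1, Vpreb2, Igll1, Dntt and Erg had no promoter peak shared by the WT LSK libraries.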

How the data were processed

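Sorted pre-B cells gave 4 RNA-seq libraries, 2 per genotype, and these were analysed with the promoter peaks of the 4 LSK ATAC-seq libraries as a side readout. The authors aligned reads to mm10 with BWA 0.7.15 (BWA-MEM), removed duplicates with Picard and quantified the annotated UCSC transcripts alone with StringTie 2.0. For each transcript, TPM, FPKM and coverage were deposited by the authors, and for each exon its coverage, without any read count. MACS2 peaks were deposited with a score and an annotation, and only their promoter class and gene were used. The authors' tables of differential peaks and transcripts hold fold changes and p-values and were not used, except for the transcript names.

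Of 63924 transcripts listed in any library, the 63753 listed in all 4 were kept. Of these, 30124 were named by the deposited symbols. A further 26256 took the symbol of the GENCODE M21 gene sharing at least 50% of their exonic bases on the same strand. This raised the named TPM to between 97.5% and 97.9%. The 2 composite immunoglobulin transcripts and unnamed ones were left out. Log2(TPM + 1) of gene sums with a mean TPM of at least 5 was modelled by limma 3.58.1 under R 4.3.3 (genotype only, eBayes with trend, Benjamini-Hochberg), after a test on simulated data. A difference is Dido1dE16 minus WT on the log2(TPM + 1) scale, which understates low genes. The p-values measure the spread between 2 pools per genotype. The members and gene lists were chosen with earlier results of these data known. Named are Dido1, each called gene, the 12 largest differences without overlap per direction, up to 4 such members per list and members that define a cell type, and Bst1, Cd74, Fcer2a, H2-Aa, H2-Ab1, H2-Eb1, Ighm, Ikzf3 and those marked in the text were named after their values were seen. Alternatives were a pseudocount of 0.1, a mean TPM of at least 1, no filter, median-centring, FPKM, rescaling without immunoglobulin, globin, granule and unnamed transcripts, the highest transcript per gene, eBayes without trend, a replicate block and leaving out each library. Using deposited symbols alone was added after seeing the data. Promoter sequences are from RefSeq (GRCm38.p6), where 7741 of the 9873 genes matched. Summaries used Python 3.11.15 with pandas 2.3.3, and plots matplotlib 3.10.9. A few items are not reported here.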

Additional observations from a re-analysis of the deposited data

How the results depend on the processing

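The counts of called genes rest on the processing. Against 3 called higher and 3 called lower, both counts were 0 with a pseudocount of 0.1 (967 genes at an unadjusted p under 0.05) and without a filter on low values (1626 genes). They were 7 and 6 with the highest transcript per gene, and 17 and 4 with eBayes without trend. With deposited symbols alone 5 were called higher, and with a library left out 0 to 5 were called higher and 0 lower. The replicate block gave 0 higher and 0 lower (782 genes at an unadjusted p under 0.05), with an adjusted p of 0.165 for Serpina3g (0.0296 to 0.672 over all alternatives). The labels do not say what a replicate number shares, and the deviations of same-numbered libraries correlated at r = 0.0348, so the numbers were not taken as pairs. In both genotypes replicate 1 was deeper and held the Y-linked transcripts, and replicate 2 had the higher neutrophil and erythroid sums. The mitosis and immediate early sums were ordered oppositely in the 2 genotypes. Whether same-numbered libraries share a batch was not tested, and 1 r over all genes cannot decide it. Genes without overlap numbered 1386 higher with a mean TPM of at least 1, and 1633 higher and 520 lower without a filter. With a library left out they ranged from 859 to 1502 higher and from 286 to 713 lower.

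List medians moved by over 1 SD in 60 of 516 cases. The IL7 list (0.32) was at 0.36 with a mean TPM of at least 1, 0.26 when median-centred, 0.21 with the highest transcript and 0.31 to 0.42 with a library left out. The pro-B list (2.34) was at 1.71 with a mean TPM of at least 1 and without a filter. It was at 1.59 with FPKM and 1.46 to 2.70 with a library left out. The V(D)J list ranged from -0.18 to 0.31 and the B-lineage factors from -0.032 to 0.11 with a library left out. Of 1850 gene values under alternatives, 10 turned sign, all of genes not called. Many of the 1850 could not turn, since the filters, the trend and the replicate block leave a difference as it is. A gene picked as without overlap also keeps its sign with a library left out. The share that turned is thus no measure of stability. With the highest transcript these were Cbx7 (-0.73), Cdkn1a (-1.22), Cyc1 (2.93), H2-Ab1 (0.084), Jak3 (-1.85) and Mrpl55 (1.05), and with deposited symbols alone Dido1 (-1.01), H2-Ab1 (0.084), Jak3 (-0.99) and Ndufb8 (0.49). The cause was not tested. There are 2 libraries per genotype and no read counts, so the counting error of a value is unknown.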

Other observations

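Genes next to Dido1 on chromosome 2 were looked at after the values were seen, since 1 of the largest differences, B230312C02Rik, lies there. Of 35 genes tested within 1 megabase of Dido1, 3 were higher and 5 lower without overlap, beside 7.51% and 3.19% of all genes, and of 38 within 2 megabases 3 were higher and 7 lower. Arfgap1, a regulator of Golgi transport, was at 77.3 and 75.4 TPM in the WT libraries and 41.8 and 38.2 TPM in the Dido1dE16 libraries. Ppdpf was at 119.8 and 141 TPM in the WT libraries and 76.7 and 78.7 TPM in the Dido1dE16 libraries, and Slco4a1, an organic anion transporter, at 85.5 and 194 TPM in the WT libraries and 79.9 and 49.1 TPM in the Dido1dE16 libraries. B230312C02Rik (0 and 2.72 TPM in WT and 61.9 and 40.5 TPM in Dido1dE16) and Col20a1 (0.927 and 0 TPM in WT and 36.0 and 24.0 TPM in Dido1dE16) were the higher ones listed at 0 in 1 WT library each, and Slc17a9 was at 3.70 and 4.39 TPM in WT and 10.2 and 6.62 TPM in Dido1dE16. Rps21, a ribosomal protein, and Mir3091, which lies inside the Rps21 gene, were the other lower ones. The region was not tested against other regions, and what it owes to the engineered allele was not tested.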
